A study of Mus musculus with 8 samples.

Results

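ZBTB2 peaks of neural progenitor cells (NPCs) were compared with those of the mouse embryonic stem cells (ESCs) grown in serum, to ask at which ESC sites a peak was also listed in NPCs, where the NPC peak lay inside its ESC peak, and how the order of the sites by score differed. Every peak of both lists was a member, except those in a dense block of about 150 kb on chromosome 10 (from position 5852507 in mm9), on the mitochondrial chromosome and on contigs of unknown position. The members were 4057 of 4072 serum ESC peaks and 312 of 320 NPC peaks, or 4369 of the 10326 peaks in the 3 lists of the study. A pair was an NPC peak and the serum peak that shared the most bases with it, at an overlap of at least 1 bp.

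ChIP-seq had been done with an antibody against GFP (Abcam, ab290) on IB10 ESCs of the 129/Ola background that carried a ZBTB2-GFP transgene on a bacterial artificial chromosome (BAC). The serum ESCs were cultured in Serum/LIF, and the NPCs were derived from the same tagged ESCs and kept in NPC medium. A further list, from the tagged ESCs in Serum/LIF with 2i added, is used here only as a second ESC library at the same sites. Each state had 1 library, so no difference has a replicate check, no p-value is given, and cell state cannot be told apart from the library. The 95% intervals cover counting error alone and take each peak as independent. Both lists report the tagged protein of 1 BAC line, and the labels do not say how its level compares with that of the cells' own ZBTB2. The inputs and the GFP immunoprecipitations of untagged cells (IB10 ESCs, and NPCs from R1 ESCs) were not analysed here. Peak lists hold no marker expression, so the labelled cell types could not be checked.

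ZBTB2 belongs to the BTB zinc finger proteins, in which a BTB domain mediates contacts between proteins and zinc fingers contact DNA. The title of the series describes it as a reader of unmethylated DNA. In mammalian genomes most CpG sites are methylated, and the main unmethylated stretches are CpG islands, which often lie at gene starts. ESCs can form all cell types of the body, and NPCs are their descendants committed to forming neurons and glia. Genes, CpG islands and sequences at the peaks were not looked up, because the annotation at hand belongs to another genome build than the lists.

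The lists differed in length, width and score. Read depth is unknown. The serum members had a median width of 380 bp (range 180 to 1895), and the NPC members 263.5 bp (range 166 to 1320). The score of a peak is a −log10 of p or q, as the peak caller gives it. Its median was 15.3 (range 3.03 to 404.8) in serum ESCs and 11.3 (range 2.07 to 80.8) in NPCs. The cutoff in the names of the peaks was 0.001 for serum and 0.01 for NPC. Scores of different lists are not on 1 scale, so a score is read only by its rank within its own list.

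NPC peaks were a small subset of the serum sites. Of the 4057 serum peaks, 290 overlapped an NPC peak, which is 7.15% (95% interval 6.37 to 7.98). These are called retained peaks in what follows. The word means only that an NPC peak was listed there, and a serum peak without one may still be bound below the NPC cutoff. In the other direction 302 of the 312 NPC peaks, or 96.8% (94.2 to 98.5), overlapped a serum peak, and 94823 of their 98615 bp (96.2%) lay within serum peaks. For scale, 3227 serum peaks (79.5%) overlapped a peak of the longer 2i list. The retained serum peaks were almost all 2i peaks too: 286 of 290 (98.6%, 96.5 to 99.6) overlapped a 2i peak, against 2941 of the 3767 others (78.1%, 76.7 to 79.4). Serum score was not held equal in this contrast. Among the 100 highest-scored serum peaks, all 59 retained ones and all 41 others had a 2i peak. The highest-scored quintile held 28, 56 and 127 retained peaks among 271, 270 and 271 serum peaks of 3 width groups. In it 211 retained peaks and 593 others had a 2i peak, so nearly all did, retained or not. The contrast of 98.6% against 78.1% was thus nearly absent among the highest-scored serum peaks.

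Retention was concentrated at the top of the serum list. In the highest-scored decile of serum peaks 158 of 406 were retained (38.9%, 34.1 to 43.8), in the next decile 13.1%, and in the lowest decile 1 of 406 (0.246%). Of the 10 highest serum peaks 9 were retained, of the top 50 there were 40 (80%), and of the top 200 there were 100 (50%). The share was thus far above the background of 7.15% at the strongest sites and far below it in the lower 50% of the list. Only 14 of the 302 pairs (4.64%) had a serum partner from that lower part.

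Width marked the retained sites even among serum peaks of like score. The highest-scored quintile of serum peaks was divided into 3 equal groups by width. Of the narrowest group (186 to 600 bp) 28 of 271 peaks were retained (10.3%, 6.98 to 14.6), of the middle group 20.7% (16.1 to 26.1), and of the widest group (855 to 1895 bp) 127 of 271 (46.9%, 40.8 to 53.0). The intervals of the 3 groups do not overlap. Their median serum scores were 44.9, 53.6 and 64.3, so score was not held equal by this division. In the top decile alone the narrowest and widest groups had shares of 20% and 64.0%. With NPC peaks of 200 bp or wider the narrowest and widest groups of the quintile had 6.64% and 42.1%. A finer division took the 800 highest serum peaks in 16 successive groups of 50. Retained peaks were wider than the others in 15 of the 16 groups, with a median ratio of 1.39 between the median widths. The serum score itself was higher at the retained peaks in 9 of the 16. The exception in width was the fifteenth group, where the 5 retained peaks had a median of 508 bp and the other 45 had 583 bp. Groups 10 to 16 held 3 to 9 retained peaks each.

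**Figure D1:**
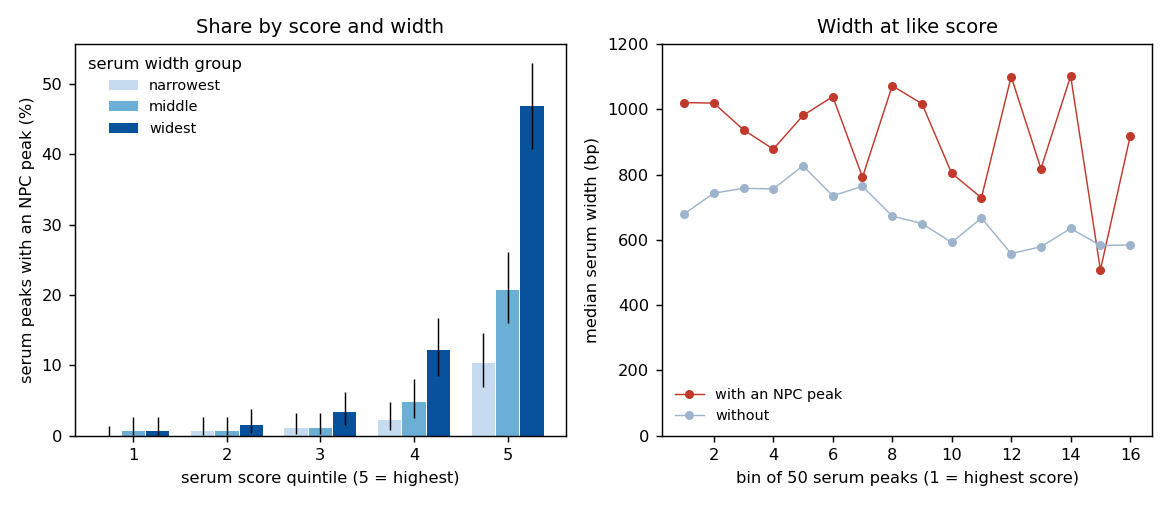
Left, the share of serum ESC peaks with an NPC peak (%, bars from 0, lines are 95% Clopper-Pearson intervals) in each quintile of serum scores, divided into narrowest, middle and widest peaks; the widest peaks of the top quintile reach 46.9%. Right, the median serum width (bp) of peaks with and without an NPC peak in 16 groups of 50 peaks in order of score, where the retained peaks are the wider ones in all but the fifteenth group.

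The 2i library, which played no part in choosing the pairs, showed the same difference in width. Each 2i peak was the one sharing most bases with the serum peak, from the same tagged ESCs. Its width was close to that of the serum peak, with a median ratio of 1.07 at retained and 1.09 at other sites. The 2i widths are therefore not a separate check of the serum widths. In all 16 groups the 2i peaks at retained sites were wider than the 2i peaks at the other serum sites. The median factor was 1.44, with a range of 1.07 to 2.27 over the groups. The 2i scores at retained sites also ranked higher in all 16. The median 2i ranks were 45 against 62.5 in the first group and 1099 against 1123 in the last. At the level of the 100 highest serum peaks, the 59 retained ones had a median serum width of 1019 bp (95% interval 909 to 1119) and the 41 others 741 bp (664 to 833). In 2i ESCs the same sites had median widths of 992 and 729 bp. Score differed as well in this set, with a median serum score of 151.3 for the retained peaks and 119.1 for the others. In the first group of 50 the scores ran the other way: the 40 retained peaks had a median score of 162.7 and a width of 1020.5 bp, and the 10 others a score of 182.8 and a width of 679.5 bp.

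Those 10 were the strongest serum peaks without an NPC peak. The highest was chr11:3996350-3997018 (669 bp), which scored 211.8 and ranked 10 among the serum members and 39 in 2i ESCs. It was followed by chr4:102787007-102787693 (687 bp, score 200.5), chr17:35977871-35978855 (985 bp, 198.7) and chr1:194660734-194661320 (587 bp, 196.6). The other 6 were chr6:122289329-122290161, chr7:4971700-4972443, chr1:145549873-145550544, chr7:13619720-13620347, chr1:174306271-174307225 and chr11:86497122-86497661. All 10 were between 540 and 985 bp wide and had a 2i peak, at 2i ranks from 13 to 306. None reached the median width of the 40 retained peaks in the same group.

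Inside its serum peak, the NPC peak was a narrow segment. Of the 302 paired NPC peaks, 276 lay wholly within the serum peak (91.4%, 87.6 to 94.3), 26 crossed an edge, and 1 of these spanned the whole serum peak. The median NPC width was 267 bp and the median width of the serum partner 863 bp. The ratio of the widths had a median of 0.35 (95% interval 0.32 to 0.38; quartiles 0.23 and 0.50), and 8 NPC peaks were wider than their serum peak. For the peaks wholly inside, a median of 175 bp of serum peak remained beyond the nearer end and 391.5 bp beyond the farther end, and the closest approach to an edge was 12 bp. NPC peaks therefore did not share an edge with the serum peak, on either side, in any of the 276 pairs.

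**Figure D2:**
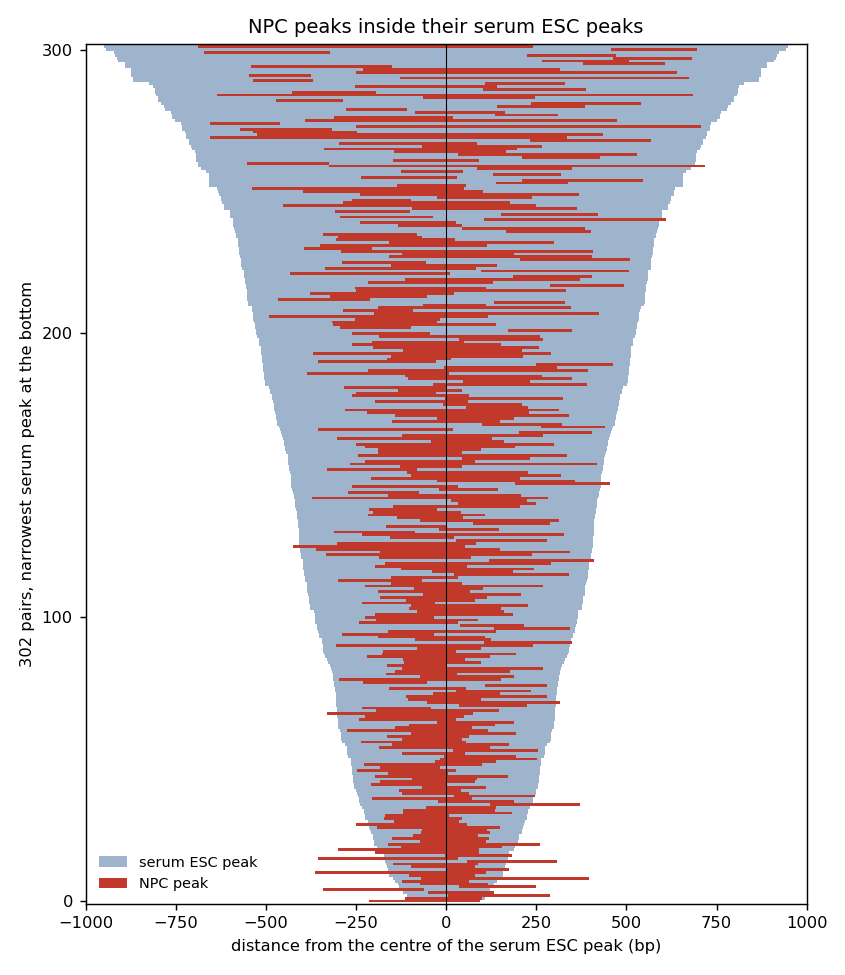
Each of the 302 rows is 1 pair, with the serum ESC peak in blue and the NPC peak in red, aligned on the centre of the serum peak (x axis in bp) and ordered by serum width. The blue outline widens from 180 to 1895 bp, while the red bars have a median width of 267 bp and lie wholly within the blue in 276 rows.

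The NPC peak tended to sit near the middle of the serum peak. The centre of an interval was taken as its midpoint, because the lists give no summits. The centres lay a median of 89.5 bp apart (95% interval 77 to 105.5; quartiles 45 and 177.9), and 160 of 302 (53.0%) were within 100 bp. The serum centre was covered by 206 NPC peaks (68.2%, 62.6 to 73.4). With each serum peak cut into 5 equal parts from its lower to its higher coordinate, the NPC centre fell in them 7, 75, 135, 66 and 13 times, and 6 centres fell outside. The middle part alone held 44.7% of the centres, and the first and last parts together few.

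A narrow peak that must fit inside a wide one cannot have its centre at the very edge, so the place was also measured within the room each NPC peak had. For the 276 peaks wholly inside, the room was the serum width minus the NPC width, cut into 3 equal parts. The peaks fell 74, 131 and 71 times in the lower, middle and upper part, so the middle held 47.5% (41.4 to 53.5). The middle was therefore the most frequent place on this scale too, at a smaller size than on the whole serum peak, where the middle of 3 equal parts held 66.9% of the 302 centres. No side was favoured: 154 NPC centres lay below the serum centre in coordinate and 147 above, and the signed distance had a median of −4 bp (95% interval −30 to 21.5). Strand and gene direction were not used.

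**Figure D3:**
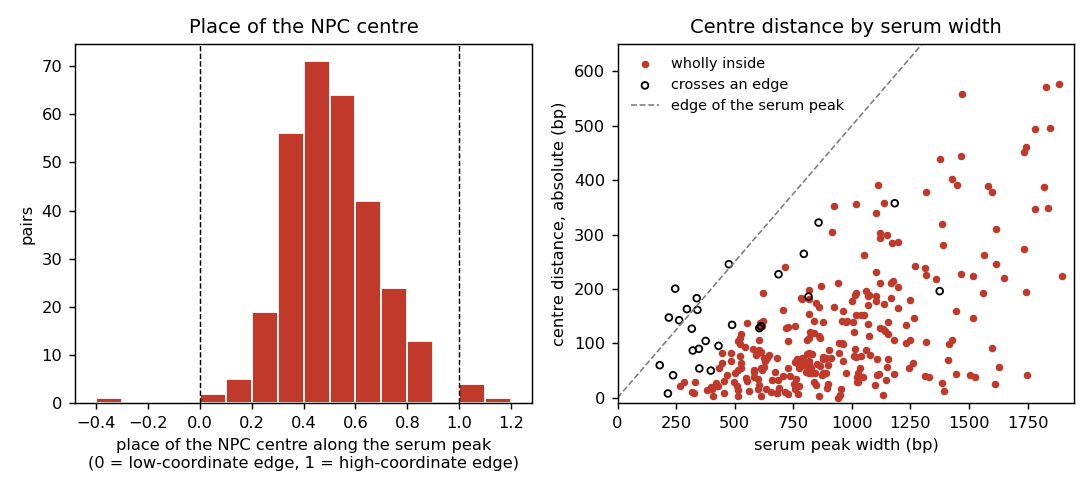
Left, the number of pairs by the place of the NPC centre along the serum ESC peak, where 0 and 1 are its edges; most centres lie between 0.2 and 0.8. Right, the absolute distance between the centres (bp) against serum width (bp), with peaks wholly inside filled, those crossing an edge open, and a dashed line where the NPC centre would lie on the serum edge.

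The distance between centres was larger in wider serum peaks, while NPC width differed less. From the narrowest to the widest quartile of the serum partners, the median distance was 54.75, 68, 107 and 204.5 bp. A wider serum peak leaves more room for the NPC centre, so the rise in bp is partly fixed by width. Scaled to the serum peak there was no steady trend. The middle of 3 equal parts held 61.8%, 74.7%, 72.4% and 58.7% of the centres in these quartiles. The median NPC width in the same order was 225.5, 255, 309.5 and 290 bp, so the ratio of the widths had medians from 0.52 down to 0.22. NPC width went more closely with NPC score than with serum width, with Spearman correlations of 0.42 and 0.26 over the pairs. From the lowest to the highest quartile of NPC score it was 212.5, 244, 269 and 409.5 bp, at serum widths of 819.5 to 925 bp. The share of centres in the middle of 3 equal parts of the serum peak was 77.6% in the highest NPC score quartile and between 61.8% and 65.3% in the other 3. A peak caller draws wider peaks where signal is stronger, and the part of NPC signal or depth in the narrow NPC width was not tested.

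The NPC peaks that crossed an edge belonged mostly to narrow and low-ranked serum peaks. The serum partners of the 26 had a median width of 362.5 bp and a median score of 17.9, against 900 bp and 61.3 for the 276 pairs with the NPC peak inside. The 26 also included wide and high-scored serum peaks, up to 1375 bp and up to a score of 108.6. The overhang was short, with a median of 29 bp and a maximum of 247 bp.

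The 5 pairs with the largest distance between centres lay in serum peaks of 1471 to 1885 bp, with the NPC peak toward 1 end. At chr3:51079864-51081748 (serum score 99.1) the NPC peak of 237 bp (11.8) was centred 577 bp above the serum centre. At chr6:113026002-113027829 (serum 146.0) the NPC peak of 219 bp scored 3.96 and lay 571.5 bp above it. In these and the other 3, chr15:96116935-96118405, chr19:5688084-5689927 and chr17:48548082-48549863, the NPC peak took up between 12.0% and 19.0% of the serum peak.

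The position of the 2i peak differed from that of the NPC peak at the same sites. For the 298 pairs whose serum peak had a 2i partner (the 2i peak sharing most bases with it), the 2i and serum centres lay a median of 44.5 bp apart (95% interval 37.5 to 54). The NPC centre lay 88.5 bp (76 to 105.5) from the serum centre and 95.75 bp (81 to 119.5) from the 2i centre. The NPC centre was the nearer to the 2i centre in 133 of 298 pairs (44.6%, 38.9 to 50.5), so it followed neither ESC list more closely beyond counting error. The 2i peaks were about as wide as the serum peaks, with a median ratio of 1.07 (1.02 to 1.09) at 286 retained sites, and 59 of them (20.6%) lay wholly inside. NPC peaks were inside the serum peak in 274 of the 298 pairs (91.9%) and inside the 2i peak in 282 (94.6%). The 2i list is longer than the serum list and the NPC list far shorter, so list length and cell state cannot be told apart in this comparison.

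A serum peak rarely broke into several NPC peaks. Of the 290 retained serum peaks 16 overlapped 2 NPC peaks (5.52%, 3.19 to 8.81), 274 overlapped 1, and none more than 2. The count was 6 with NPC peaks at most 200 bp apart joined, 7 with NPC peaks of 200 bp or wider, and 2 in the higher-scored 50% of each list. The 16 were wide, with a median of 1371 bp (95% interval 891 to 1617) against 834.5 bp (792 to 879) for the others, and 11 of them came from the widest quartile of retained peaks, where they made up 15.1% of 73. Their median serum scores were 70.0 (37.0 to 120.4) and 55.2 (50.6 to 60.1), with overlapping intervals. Between the 2 NPC peaks lay a median gap of 136 bp (range 65 to 531), and the gap was at most 200 bp in 10 of the 16. The centres of the 2 NPC peaks lay on either side of the serum centre in 15. The exception was chr8:26712380-26713270, where the outer NPC peak overlapped by 28 bp and was paired with the neighbouring serum peak. In 13 sites 1 of the NPC peaks still covered the serum centre, so the gap itself lay off centre there.

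The serum site with the highest score among them was chr4:133368889-133370633, 1745 bp wide, with a serum score of 222.1 and rank 8. It held an NPC peak of 171 bp that scored 6.45 (rank 254 of the NPC members) and, after a gap of 125 bp, one of 891 bp that scored 41.2 (rank 13). At chr1:179371543-179373278 (serum score 120.4) NPC peaks of 168 and 800 bp scored 10.4 and 65.8, at ranks 172 and 4. In both sites the wider NPC peak was thus near the top of the NPC list and the narrower one was not. The NPC peaks were closer in rank at chrX:91367562-91369025 (31 and 38) and chr11:23206067-23207382 (182 and 198).

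The widest gap, 531 bp, was at chr17:48548082-48549863 (serum score 140.3), where the NPC peaks scored 17.1 and 9.38. It was also the only one of the 16 with 2 peaks in the 2i list. The other 15 overlapped exactly 1 2i peak. Of the remaining sites in the top 10 by serum score, chr1:38185696-38187121 (157.7) held NPC peaks scoring 16.0 and 21.4, and chr19:3767512-3769128 (77.5) held NPC peaks scoring 28.4 and 10.2. At chr2:70662972-70664093 (71.4) they scored 9.47 and 16.6. The last 2 were chr2:48669002-48670053 (68.6), with NPC scores of 10.03 and 6.63, and chr11:87881496-87882313 (63.7), with 14.9 and 9.16. Among all 290 retained serum peaks 11 (3.79%) held 2 or more 2i peaks, which is within the interval of the NPC share.

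**Figure D4:**
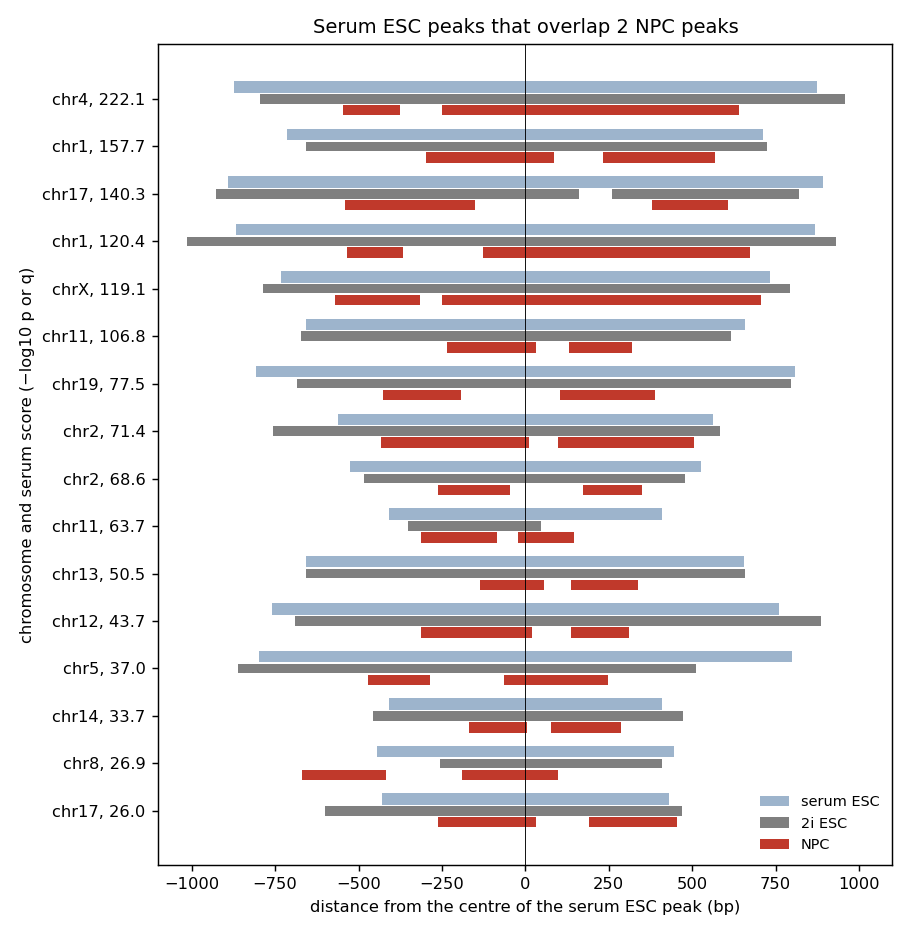
The 16 serum ESC peaks (blue) that overlap 2 NPC peaks (red), with the 2i ESC peaks in grey, aligned on the serum centre (x axis in bp) and ordered by serum score, which follows the chromosome in each label. A single 2i peak spans both NPC peaks or most of them at most sites, and 2 grey bars appear at 1 site on chr17.

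The reverse case was rarer. An NPC peak joined 2 neighbouring serum peaks at 4 places, across serum gaps of 64 to 157 bp. The strongest was chr5:139471059-139471522 (NPC score 18.4), which reached across serum peaks scoring 24.2 and 5.64. The other 3 were chr7:35440375-35440764, chr8:26712156-26712407 and chr17:4994228-4994439. At 3 of the 4 the 2i list had a single peak, and at the one on chromosome 8 it had none.

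The order of the sites by score was partly the same in both lists. Across the 302 pairs the NPC and serum scores had a Spearman correlation of 0.46. This is a description across peaks of 2 libraries, in which a serum peak with 2 NPC peaks can enter 2 times. Over the 298 pairs with a partner in the 2i list, the correlation was 0.73 between serum and 2i scores, 0.46 between NPC and serum scores and 0.35 between NPC and 2i scores. Serum width, which marked the retained sites, had little relation to the NPC score among the pairs. The correlation was 0.09, against 0.44 between serum width and serum score. Only sites above the NPC cutoff enter the pairs, which limits the range of NPC scores. The 0.09 therefore does not describe serum sites in general.

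Ranked among the 302 pairs in each list, a pair moved by a median of 51 places (95% interval 42 to 64; quartiles 23 and 108.75). No more than 50 places separated the ranks of 150 pairs (49.7%), and more than 100 places those of 86 (28.5%). Of the 76 pairs in the highest serum quartile, 41 were in the highest NPC quartile and 8 in the lowest. Of the 76 in the lowest serum quartile, 33 were in the lowest NPC quartile and 8 in the highest.

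**Figure D5:**
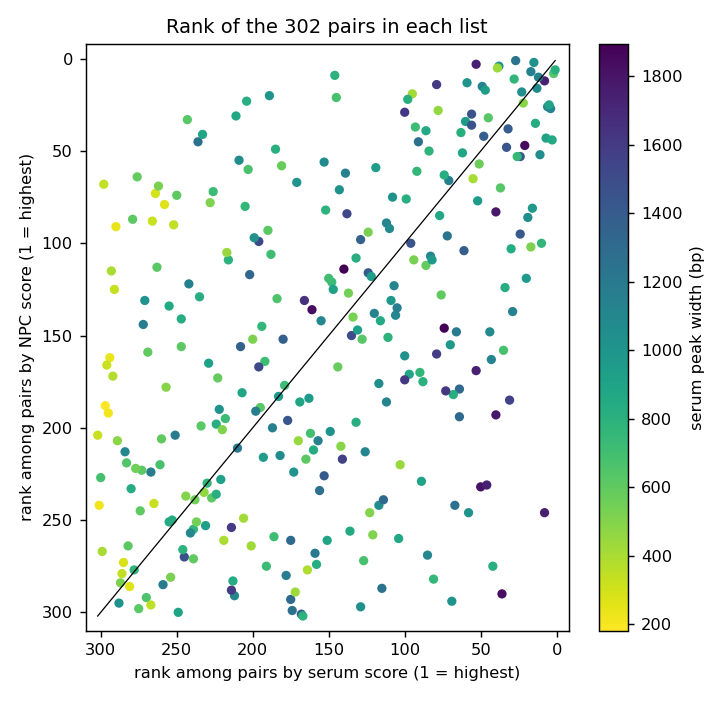
Rank of each of the 302 pairs by serum ESC score (x axis) and by NPC score (y axis), both with 1 as the highest at the upper right, coloured by serum width (bp); the line marks equal ranks. The upper right corner is dense, and pairs lie up to 254 places from the line.

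Among the paired peaks, the strongest NPC peaks mostly stood at the strongest serum sites. The highest NPC member, chr8:42533863-42534050 (80.8), had no serum peak and is not counted here. Of the 10 highest paired NPC peaks 9 had a serum partner among the 100 highest serum members, of the 30 highest 21 did, and of the 30 lowest 2 did. The highest paired NPC peak was chr11:98656235-98656935 with an NPC score of 70.3, inside a serum peak of 1233 bp that ranked 33. It was followed by chr1:173259250-173259709 (65.9, serum rank 18), chr1:179372284-179373083 (65.8, serum rank 69) and chr14:52633984-52634593 (65.0, serum rank 45). The 2 highest serum peaks were also among these 10: chr9:108392943-108393470 scored 59.6 in NPCs, and chr15:99125440-99125832 scored 56.6.

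The other members of that set were chr9:44689446-44689624 (61.4, serum rank 46), chr15:102033892-102034591 (59.2, serum rank 22), chr9:45714288-45714707 (44.7, serum rank 12) and chr19:10599725-10600183 (55.0, serum rank 325). The last of these was the only one below serum rank 100. These strong NPC peaks filled between 37.0% and 65.3% of their serum peaks, more than the median of 34.6% over all pairs, and their centres lay at most 273 bp from the serum centre. The chromosome 9 peak at 44689446 was only 179 bp wide, in a serum peak of 435 bp.

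The largest falls in rank from serum ESCs to NPCs start, by their size, from high serum ranks. In 9 of the 10 the NPC peak was 166 to 267 bp wide, in serum peaks of 755 to 1828 bp. The largest fall was at chr6:113026002-113027829, from rank 36 among pairs by serum score to rank 290 by NPC score. Next came the weaker of the 2 NPC peaks at chr4:133368889-133370633, from 8 to 246, although its stronger neighbour kept that serum site high in the NPC list. At chr4:122562876-122563691 the pair went from 42 to 275, with an NPC peak of 176 bp in a serum peak of 816 bp, and at chr7:35173968-35174974 from 69 to 294. The other 6 of the 10 largest falls, of 175 to 201 places, were at chr3:97030897-97031651, chr7:35841083-35842101, chr5:88993471-88995216, chr4:119211764-119212865, chr1:183948949-183950768 and chr5:97426067-97427314. The last of these was weak in the 2i list as well, at 2i rank 2755, and the others ranked between 5 and 935 there.

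In 9 of the 10 largest gains in rank, which by their size start from low serum ranks, the NPC peak filled between 45.9% and 73.3% of the serum peak. The largest gain was at chrX:166424750-166425096, from rank 298 to rank 68, with a serum score of 9.62 and an NPC score of 18.9. It was followed by chr1:178743785-178744374 (276 to 64), chr7:117103483-117104108 (243 to 33) and chr10:126818068-126818313 (290 to 91). The last of these was the exception, and its NPC peak of 281 bp was wider than the serum peak of 246 bp and was centred outside it. The other 6, with gains of 181 to 193 places, were at chr8:77517624-77518145, chr14:49791664-49792558, chr14:31832211-31832814, chr5:139470980-139471275, chr10:7675354-7676623 and chr12:8680788-8681605.

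Over the 30 largest gains and the 30 largest losses, the median serum width was 611 bp against 1077 bp and the median NPC width 342 bp against 204 bp. The ratio of the widths was 0.56 (95% interval 0.46 to 0.70) at the gains and 0.21 (0.17 to 0.26) at the losses. Scores chose these pairs and go with width in each list, so the width difference is a description.

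In 10 cases an NPC peak had no serum peak. They included the highest NPC member, chr8:42533863-42534050, 188 bp wide with a score of 80.8, which lay 208.8 kb from the nearest serum peak and had no 2i peak. The others were chr17:88853756-88853928 (27.9), chr10:52101677-52101924 (13.4), chr12:114336634-114336832 (9.43), chr8:47237589-47237780 (8.68), chr7:77495877-77496059 (7.91), chr10:104053733-104053911 (7.08), chrX:166416823-166417167 (6.98), chr7:51684480-51684656 (6.23) and chr14:70919979-70920163 (5.50). A 2i peak overlapped 3 of them, those on chromosomes 12 and 14 and the one at 47237589 on chromosome 8. These peaks were short: 8 of the 10 were under 200 bp, against 69 of the 302 paired NPC peaks (22.8%). The peak on X lay 7.58 kb from the serum peak with the largest gain in rank. Whether repeated sequence or the antibody's background gave these peaks was not tested.

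No chromosome, and no range of distances to the next serum peak, had a share of retained peaks outside counting error. The share of retained serum peaks ran from 4.96% on chromosome 19 to 11.1% on chromosome 14, and the interval of each of the 20 chromosomes held the overall 7.15%. Serum peaks with another serum peak at most 1 kb away were retained in 7.40% of cases, and those more than 1000 kb from any other in 8.28% (4.60 to 13.5). Serum score and width were not held equal in these shares. Over the ranges of distance the median serum score ran from 13.2 to 16.4 and the median width from 338 to 402 bp, both lowest at most 1 kb away.

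Among close neighbours, the stronger peak was usually the one with the NPC peak. Serum peaks at most 1 kb apart formed 375 groups, and 54 of these (14.4%) had an NPC peak. A group has several chances to hold one. Per peak, 7.40% of the 784 serum peaks in the groups were retained, near the background of 7.15%. In 4 of the 54 every serum peak was retained, and in the other 50 some were and some were not. Those 4 were the places where 1 NPC peak reached across 2 neighbouring serum peaks. The highest-scored serum peak of the group was retained in 45 of the 50, and the widest in 40. The median serum score of the highest retained peak was 52.2 and that of the highest peak not retained 13.4.

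The 5 exceptions, named after their values were seen, included 2 with a wide margin. In the group at chr12:92827537-92828978 the retained serum peak scored 7.09 and its neighbour without an NPC peak 58.7. In the group at chr13:112279620-112280980 the scores were 9.58 and 47.7. The other 3, at chr17:39980049-39985664, chr17:63848607-63850015 and chr10:126817519-126818313, had retained scores of 7.70, 11.0 and 13.0 beside 15.5, 12.3 and 13.5.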

How the data were processed

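Peak lists of 3 ChIP-seq libraries were used: tagged serum ESCs, NPCs and, beside them, 2i ESCs. Positions are in mm9, and MACS2 2.0 and SAMtools are named in the submitters' processing notes. The score deposited by the authors was taken to be −log10 of p or of q, because no score falls below −log10 of the cutoff given in the peak names. Not given in the sources used here are the aligner, the control library, the meaning of "merged" in the names and the read depth.

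Starts are given 1-based. Shares carry 95% Clopper-Pearson intervals and medians order-statistic intervals. Ranks are by score within a list or among pairs, and correlations are Spearman's. The rule for named peaks took the 10 highest NPC members with their serum partner. It also took serum sites with 2 NPC peaks (the 10 highest in full) and the 10 largest rank gains and losses. The 10 highest serum peaks without an NPC peak, all NPC peaks without a serum peak and the 5 most distant pairs completed it. The highest NPC member had no serum peak, so chr9:45714288-45714707 was added to the rule's set to give 10 paired peaks. NPC peaks over 2 serum peaks, the exceptional neighbour groups and the excluded pairs were named after their values were seen. Members and lists were chosen with earlier results of these data known. Python 3.11.15, numpy 2.4.6, pandas 2.3.3, scipy 1.17.1 and matplotlib 3.10.9 were used. Functions were tested on 4000 simulated serum peaks and recovered all 4 planted quantities, and the overlap counts were checked with bedtools 2.31.1 and were equal. Alternatives covered the excluded regions, the overlap rule, the choice of partner, score and width floors and joining of close peaks. The inputs and untagged immunoprecipitations were not used here.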

Additional observations from a re-analysis of the deposited data

How the results depend on the processing

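For 11 results, 78 of 90 alternatives moved a value by less than its counting interval, or a count by less than 1.5 times, and the widest serum peaks were retained more often than the narrowest in all 9 settings. An alternative chosen after seeing the data used only NPC peaks of 200 bp or wider. It gave 5.67% for serum peaks with an NPC peak and 99.1% for NPC peaks with a serum peak. The width ratio was then 0.39, with 7 divided serum peaks and 32.0% in the top decile. The narrowest group had 6.64%, and the widest 42.1%, which is within its counting interval. The higher-scored 50% of each list gave 94.7% of NPC peaks inside, a ratio of 0.40 and 2 divided peaks, from fewer peaks. Joining NPC peaks at most 200 bp apart left 6 divided peaks by construction. All alternatives to the shares by width were also chosen after seeing the data. In the top decile in place of the top quintile the shares were 64.0% for the widest and 20% for the narrowest group. The count of divided serum peaks is thus the least stable result. No paired analysis was possible because each state had 1 library. What depth limits could not be measured, because the lists do not give it.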

Other observations

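The pairs left out of the comparison held the 2 NPC peaks with the highest scores of the whole list, both in the block on chromosome 10. The block held 7 serum, 5 NPC and 83 2i peaks. What gives the dense signal there was not tested, so these scores are not read as the strongest retained binding. The NPC peak at chr10:5957759-5960082 (score 205.2, 2324 bp) nearly filled its serum peak, with a width ratio of 0.98. At chr10:5913600-5914741 (185.7, 1142 bp) the ratio was 0.95. Both lie above the third quartile of 0.50 over the 302 pairs. The other 2 pairs in the block had ratios of 0.56 and 0.59, and the 2 pairs on contigs 0.27 and 0.45.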
